A study of Homo sapiens with 12 samples.

Results

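The C-type lectins and killer lectin receptors are the genes whose symbol begins with CLEC and a digit, or with KLR and a letter from A to K. Of 18417 genes measured, 39 met this rule, and 24 of them lie on chromosome 12. The rule reads only symbols, but the group was proposed with earlier results of these data known. They were measured in UKE1 and HEL, established human cell lines that the labels call erythroleukemia and that carry the JAK2V617F mutation, which leaves the JAK2 kinase active without its cytokine. The 4 groups were UKE1 cultured for 6 h with 250 nM ITF2357, UKE1 left untreated for the same time, HEL with 250 nM ITF2357 for 6 h, and untreated HEL. Each group held 3 Affymetrix Gene 1.0 ST arrays, 12 in all, described as independent triplicates, and p-values measure only the spread between these samples. ITF2357 (givinostat) inhibits histone deacetylases, enzymes that take acetyl groups off histones. The lines grew in different media (that of UKE1 alone was given hydrocortisone and horse serum), so line and medium cannot be told apart. No vehicle is named for the untreated cells.

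C-type lectins are membrane or secreted proteins built on a shared fold that in many members binds sugars in a calcium-dependent way. Myeloid members sense fungi, mycobacteria and dead cells, and either activate the kinase SYK or recruit phosphatases through an inhibitory motif called an ITIM. Killer lectin receptors belong mostly to natural killer cells, where receptor genes and genes for their lectin-like ligands sit side by side in a cluster known as the natural killer gene complex.

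All values are log2 expression, and differences are given on that scale with the standard error of the fit. A gene is said to have risen, fallen or changed when its adjusted p in limma, over all 18417 genes, was under 0.05. The table has no detection flag, so no gene is called absent, and levels are compared within a gene only. Array medians lay between 6.41 and 6.50. Deposited values of arrays of the same group correlated at 0.994 to 0.996, against 0.928 to 0.943 for arrays of different lines. The erythroid label was checked with 8 measured markers. Of these, 7 were lower and 1, AHSP, was higher in untreated UKE1 than in untreated HEL, against 34.4% and 33.3% of all genes. HBE1, an embryonic globin, averaged 5.19 in untreated UKE1 and 12.95 in untreated HEL. Markers of other blood cells, and the values that moved with a result, stand beside that result.

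Start-site sequences are shown first for 5 members that stood for the different response patterns below. CLEC4E fell in both lines, CLEC12A rose in UKE1, CLEC2A and KLRG1 changed in opposite directions, and CLEC16A rose in both. Each is the 300 bases that RefSeq gives around a gene start (250 before it and 50 after it, build GRCh38.p14, 5′ to 3′ on the gene's strand). KLRG1 has 2 such starts. Capitals mark matches on either strand to the letters AGATAA (named for the GATA factors), TGANTCA (the core of AP-1 and NFE2 sites), TGTGGT (named for RUNX factors) or GAGGAA (named for the ETS factor PU.1), and the marked matches do not overlap. A match describes the letters and is not a known binding site.
CLEC4E, chr12:8540856-8541155, minus strand: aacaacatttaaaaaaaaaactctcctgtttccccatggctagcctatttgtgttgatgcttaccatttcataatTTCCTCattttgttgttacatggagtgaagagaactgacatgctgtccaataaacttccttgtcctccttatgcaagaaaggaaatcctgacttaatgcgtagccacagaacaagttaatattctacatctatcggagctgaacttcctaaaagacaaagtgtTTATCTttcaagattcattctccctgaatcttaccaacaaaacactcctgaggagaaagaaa
CLEC12A, chr12:9971159-9971458, plus strand: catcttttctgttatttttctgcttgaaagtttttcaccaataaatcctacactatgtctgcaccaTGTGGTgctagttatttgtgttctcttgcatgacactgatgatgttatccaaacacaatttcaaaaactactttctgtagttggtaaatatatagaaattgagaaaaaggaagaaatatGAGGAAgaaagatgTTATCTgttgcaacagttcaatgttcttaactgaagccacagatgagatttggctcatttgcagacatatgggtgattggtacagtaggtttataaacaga
CLEC2A, chr12:9932321-9932620, minus strand: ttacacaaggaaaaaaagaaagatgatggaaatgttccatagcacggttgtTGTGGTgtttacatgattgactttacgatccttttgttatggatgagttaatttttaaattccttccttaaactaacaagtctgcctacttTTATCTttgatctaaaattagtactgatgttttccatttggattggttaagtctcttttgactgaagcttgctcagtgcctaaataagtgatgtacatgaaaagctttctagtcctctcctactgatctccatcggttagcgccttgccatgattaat
KLRG1, first start, chr12:8949794-8950093, plus strand: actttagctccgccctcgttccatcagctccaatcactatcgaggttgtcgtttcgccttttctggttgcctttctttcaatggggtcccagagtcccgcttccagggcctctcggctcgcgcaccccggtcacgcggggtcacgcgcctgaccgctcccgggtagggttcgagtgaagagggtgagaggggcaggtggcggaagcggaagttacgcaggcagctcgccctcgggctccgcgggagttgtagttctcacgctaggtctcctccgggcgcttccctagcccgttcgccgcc
KLRG1, second start, chr12:8989296-8989595, plus strand: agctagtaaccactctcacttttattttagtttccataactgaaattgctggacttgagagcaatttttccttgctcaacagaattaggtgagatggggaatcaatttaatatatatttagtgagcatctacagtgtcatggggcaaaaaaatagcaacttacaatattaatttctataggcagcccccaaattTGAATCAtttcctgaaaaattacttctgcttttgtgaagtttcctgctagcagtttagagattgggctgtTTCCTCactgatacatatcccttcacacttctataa
CLEC16A, chr16:10944314-10944613, plus strand: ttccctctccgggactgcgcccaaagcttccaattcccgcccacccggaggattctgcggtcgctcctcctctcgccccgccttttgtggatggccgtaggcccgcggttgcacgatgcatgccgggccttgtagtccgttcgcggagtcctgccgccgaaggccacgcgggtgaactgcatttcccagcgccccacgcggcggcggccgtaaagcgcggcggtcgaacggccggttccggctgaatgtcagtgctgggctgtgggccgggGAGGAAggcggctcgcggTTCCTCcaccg

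These sequences differ in base composition. The CLEC4E, CLEC12A and CLEC2A windows held 2, 0 and 4 CpG dinucleotides, the KLRG1 windows 30 at the first start and 0 at the second, and the CLEC16A window 38. The table held 26 promoters for 22 members, with a median of 3 CpG, against a median of 14 over all 35116 promoters. GAGGAA lay in 14 of the 26 (27.9% of all promoters), AGATAA in 8 (10.3%), TGTGGT in 6 (13.1%) and TGANTCA in 4 (7.71%). CLEC12A held 3 of the 4 motifs, and the first KLRG1 window held none.

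ITF2357 changed 18 of 39 members in UKE1 and 13 of 39 in HEL. In UKE1, 9 rose, where 22.0% of all genes did, and 9 fell, where 22.3% did. HEL had 8 that rose, against 22.6% of all genes, and 5 that fell, against 19.9%. These shares (46.2% of members and 44.3% of genes in UKE1, 33.3% and 42.4% in HEL) are near the background, so the number of responding members is not a result about them. The median change was 0.04 in UKE1 and -0.03 in HEL, against 0.01 and -0.01 over all genes. After quantile normalization of the arrays, 9 members rose and 3 fell in HEL.

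The responses of the lines differed for many of the members. The response of UKE1 minus that of HEL passed the test for 22 of 39 members, 10 higher (10.1% of all genes) and 12 lower (13.8% of all genes). Centring the arrays on their medians left 1370 genes higher and 3102 lower in that comparison, against 1854 and 2541 as deposited. CLEC16A and CLEC2D rose in both lines, and CLEC4D and CLEC4E fell in both. Both lines changed in the same direction for these 4 members, where 27.0% of all genes did so. CLEC2A, CLEC2B and KLRG1 fell in UKE1 and rose in HEL. Opposite changes of this kind, in either order, were found for 2.10% of all genes. Of the rest, 11 changed in UKE1 without passing the test in HEL, 7 rising (7.34% of all genes) and 4 falling (7.90%). Another 6 changed in HEL without passing in UKE1, 3 rising (7.05% of all genes) and 3 falling (6.31%). The other 15 passed in neither, where 42.3% of all genes did.

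**Figure D1:**
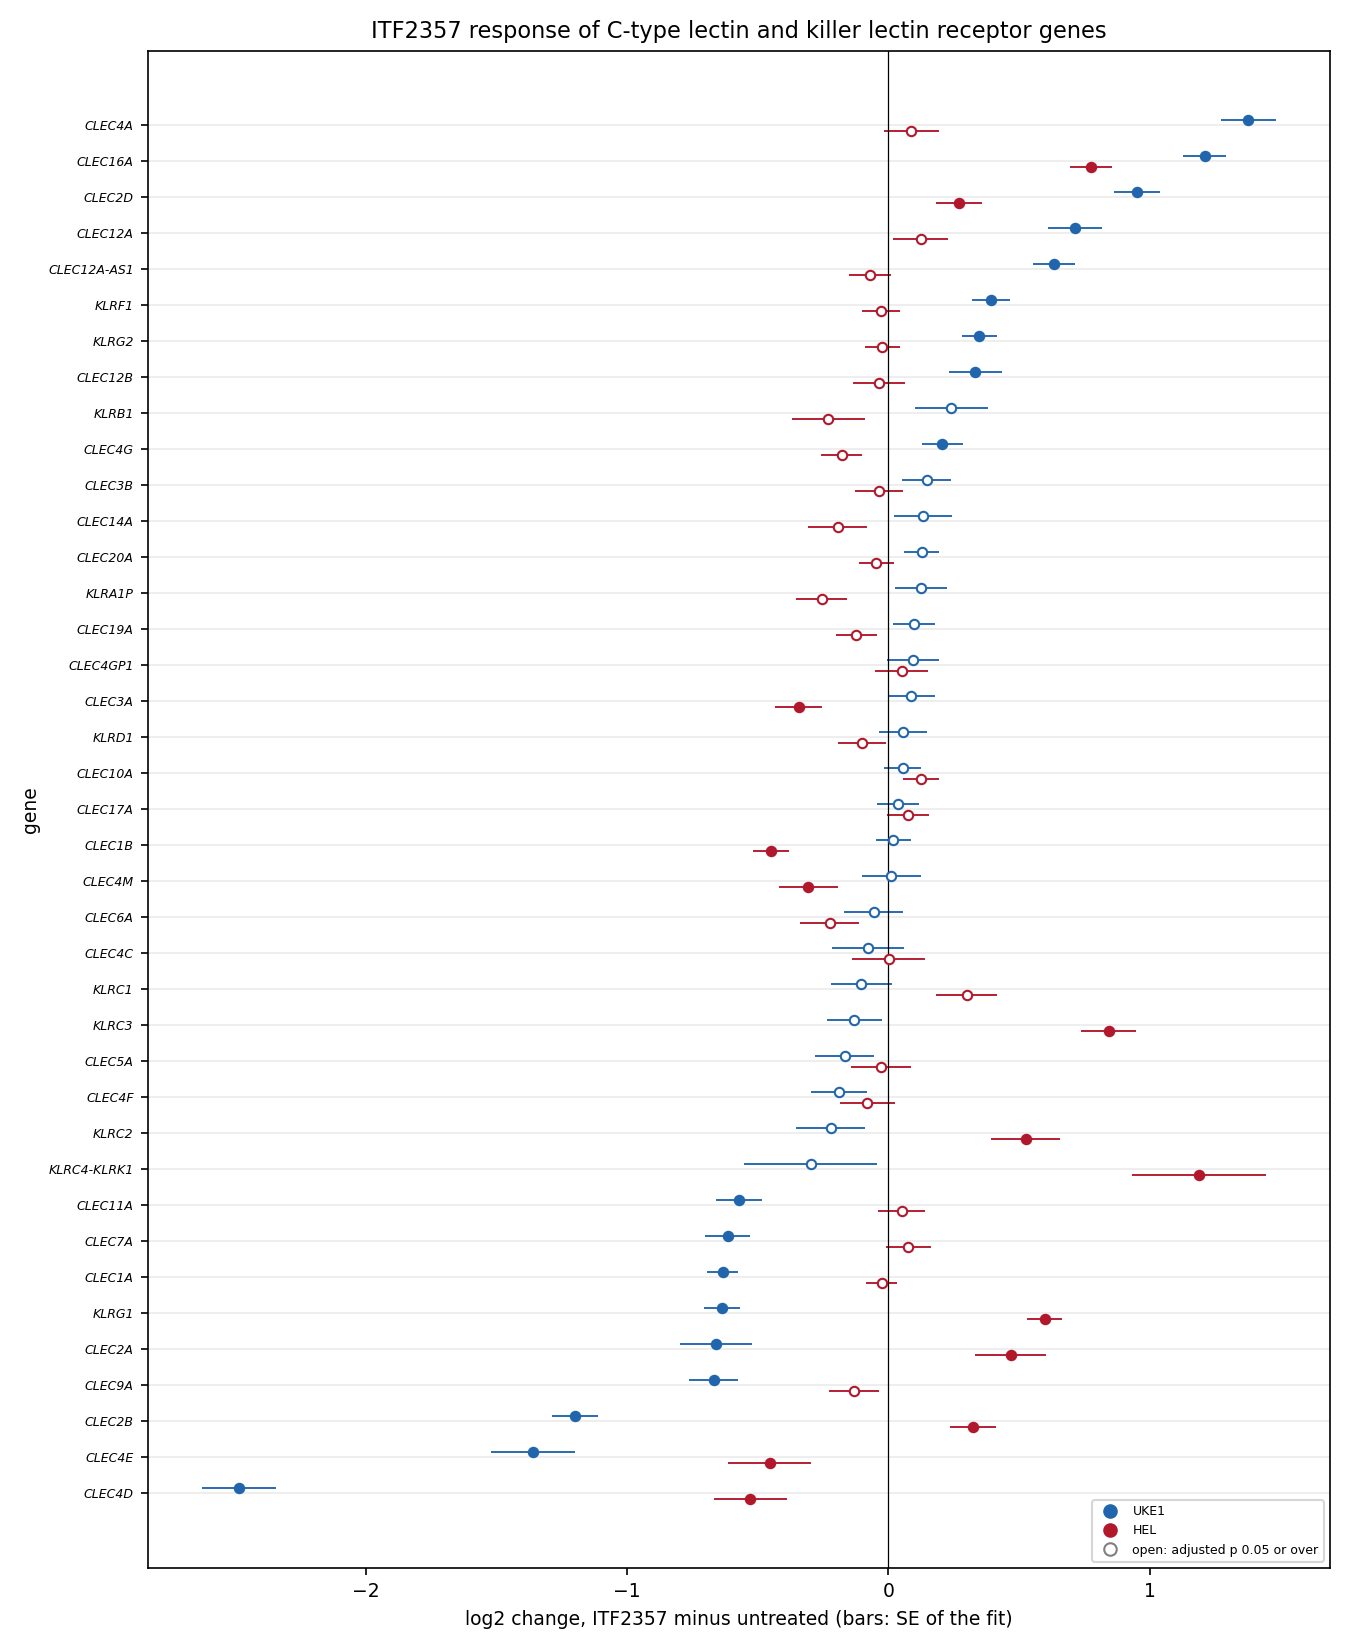
Log2 change with ITF2357 (ITF2357 minus untreated) for the 39 members in UKE1 and HEL, with error bars for the standard error of the fit and open symbols where the adjusted p was 0.05 or more. CLEC4D lies lowest in UKE1 at -2.48, CLEC4A highest in UKE1 at 1.38, and CLEC2A, CLEC2B and KLRG1 have the lines on opposite sides of 0.

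Of 8 activating receptors that signal through SYK, 4 fell in UKE1 (CLEC4D, CLEC4E, CLEC7A, CLEC9A), where 22.3% of all genes did, and 3 fell in HEL (CLEC1B, CLEC4D, CLEC4E), where 19.9% did. None of the 8 rose, against 22.0% of all genes in UKE1 and 22.6% in HEL. Their median change was -0.39 in UKE1 and -0.18 in HEL, against 0.01 and -0.01 over all genes. In the untreated lines 7 of the 8 were higher in UKE1, where 33.3% of all genes were, with a median difference of 3.35, against 0.00 over all genes. CLEC6A, 1 of those 7, lost its call without HEL untreated replicate 1 (adjusted p = 0.0616) or 3 (adjusted p = 0.0817).

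CLEC4D, which with CLEC4E senses the cord factor of mycobacteria through the Fc receptor gamma chain, showed the steepest fall of any member. UKE1 arrays had 6.05, 6.30 and 6.04 with ITF2357, against 8.52, 8.79 and 8.53 untreated. HEL arrays had 3.76, 3.92 and 3.90 with ITF2357, against 4.26, 4.78 and 4.12 untreated. Treated and untreated arrays did not overlap in either line, and every UKE1 array lay above every HEL array. The change was -2.48 ± 0.14 in UKE1 (5.60-fold lower, adjusted p = 1.01e-08) and -0.53 ± 0.14 in HEL (1.44-fold lower, adjusted p = 0.00735). It was greater in UKE1 by the test of the difference (-1.96 ± 0.20, adjusted p = 1.29e-05). CLEC4D was 2.27 ± 0.14 higher in UKE1 than in HEL with the drug, and 4.22 ± 0.14 higher without it.

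CLEC4E, known as Mincle and the neighbour of CLEC4D on chromosome 12, moved the same way. It stood at 4.22, 4.39 and 3.99 in UKE1 with ITF2357, against 5.65, 5.93 and 5.10 untreated. In HEL it stood at 2.85, 2.88 and 2.84 with ITF2357, against 3.27, 3.23 and 3.43 untreated. Neither pair of groups overlapped. CLEC4E fell by 1.36 ± 0.16 in UKE1 (2.57-fold, adjusted p = 7.76e-06) and by 0.45 ± 0.16 in HEL (1.37-fold, adjusted p = 0.0339). The fall in HEL missed the threshold after quantile normalization (adjusted p = 0.0775) and without any 1 of 5 HEL arrays, all but untreated replicate 2 (adjusted p between 0.0592 and 0.114). The difference between the responses was -0.91 ± 0.23 (adjusted p = 0.0101).

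CLEC7A and CLEC9A fell in UKE1, where all of their values stood far above those of HEL. CLEC7A, the beta-glucan receptor Dectin-1, had 7.34, 7.23 and 7.33 in UKE1 with ITF2357, against 8.04, 7.90 and 7.80 untreated. HEL had 2.68, 2.84 and 3.03 with ITF2357, against 2.76, 2.76 and 2.80 untreated. The UKE1 groups did not overlap and the HEL groups did. CLEC7A fell by 0.61 ± 0.09 in UKE1 (adjusted p = 4.04e-05). In HEL the change was 0.08 ± 0.09 (adjusted p = 0.541), and the responses differed by -0.69 ± 0.12 (adjusted p = 0.001). The HEL values of CLEC7A lay low in the table's range of 1.26 to 14.36, like those of CLEC9A and CLEC1A below. Similarly low in HEL were CLEC4E, CLEC12A, CLEC12B, KLRF1 and, with ITF2357, CLEC4D. In UKE1 so were KLRC2, KLRC3 and KLRC4-KLRK1. How far such values could fall is not known. That bears on each drug change, difference between responses and difference between lines that uses them.

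CLEC9A, a dendritic cell receptor for actin exposed by dead cells, differed between the lines by more than any other member in these deposited values. UKE1 had 10.03, 10.01 and 9.96 with ITF2357, against 10.54, 10.77 and 10.69 untreated. HEL had 3.64, 3.50 and 3.35 with ITF2357, against 3.55, 3.82 and 3.51 untreated. The UKE1 groups were apart, and those of HEL overlapped. CLEC9A was 7.04 ± 0.09 log2 units higher in untreated UKE1 than in untreated HEL (adjusted p = 4.37e-16), and 6.50 ± 0.09 higher with ITF2357 in both. Since its HEL values were not shown to be above background, no fold between the lines is given. Its fall in UKE1 was 1.59-fold (-0.67 ± 0.09, adjusted p = 4.4e-05), and the responses differed by -0.54 ± 0.13 (adjusted p = 0.01).

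CLEC1B, the platelet receptor for podoplanin, fell in HEL and did not pass the test in UKE1. It had 10.46, 10.45 and 10.42 in UKE1 with ITF2357, against 10.43, 10.40 and 10.43 untreated. The HEL arrays had 6.47, 6.43 and 6.46 with ITF2357, against 6.97, 7.00 and 6.74 untreated. UKE1 groups overlapped and HEL groups did not. The change was 0.02 ± 0.07 in UKE1 (adjusted p = 0.856) and -0.45 ± 0.07 in HEL (adjusted p = 8.75e-05), a difference of 0.47 ± 0.10 (adjusted p = 0.003). Over all genes 22.3% fell in UKE1 and 19.9% in HEL. In the same arrays 7 of 9 measured megakaryocyte and platelet markers fell in UKE1 and 5 of 9 in HEL. The mean of that list was 8.50 to 8.57 in treated and 8.97 to 9.08 in untreated UKE1, and 8.63 to 8.68 in treated and 9.07 to 9.15 in untreated HEL. Their part in the CLEC1B values was not tested, and in bulk RNA fewer cells of a type and less RNA per cell cannot be told apart.

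CLEC5A, a myeloid receptor that pairs with the adaptor TYROBP, differed between the lines and passed the drug test in neither. Its values were 6.99, 7.05 and 7.15 in UKE1 with ITF2357, against 7.31, 7.19 and 7.19 untreated. They were 4.05, 3.85 and 4.18 in HEL with ITF2357, against 3.81, 4.03 and 4.32 untreated. The UKE1 groups did not overlap, but the change of -0.17 ± 0.11 missed the threshold (adjusted p = 0.266). Untreated UKE1 was above untreated HEL (3.17 ± 0.11, adjusted p = 8.55e-12). CLEC4C (BDCA-2 of plasmacytoid dendritic cells) and CLEC6A (Dectin-2, which binds fungal mannans) passed the drug test in neither line.

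Monocyte and macrophage markers moved with this group in UKE1. Over all genes 22.3% fell and 22.0% rose in UKE1, and 42.4% changed in HEL. Of 10 measured markers, 6 fell with ITF2357 in UKE1 (CD163, CSF1R, LYZ, S100A8, TLR4, VCAN) and none rose, and none changed in HEL. The mean of the list was 6.38 to 6.44 in treated UKE1, against 6.86 to 6.93 untreated, and 5.88 to 5.94 in treated HEL, against 5.87 to 5.97 untreated. In the untreated lines 6 of the 10 were higher and 3 lower in UKE1, against 33.3% and 34.4% of all genes. Of 8 dendritic cell markers, 5 were higher and 2 lower in untreated UKE1, with list means of 6.04 to 6.12 in UKE1 and 5.04 to 5.18 in HEL. With ITF2357 2 of these 8 rose and 1 fell in UKE1. Neutrophil and granule markers also fell in UKE1, 3 of 6 (CSF3R, CXCR2, MPO), with none rising, and 1 of the 6 fell in HEL. Between the untreated lines 3 of these 6 were higher and 1 lower in UKE1. The part of these markers in the results above was not tested.

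**Figure D2:**
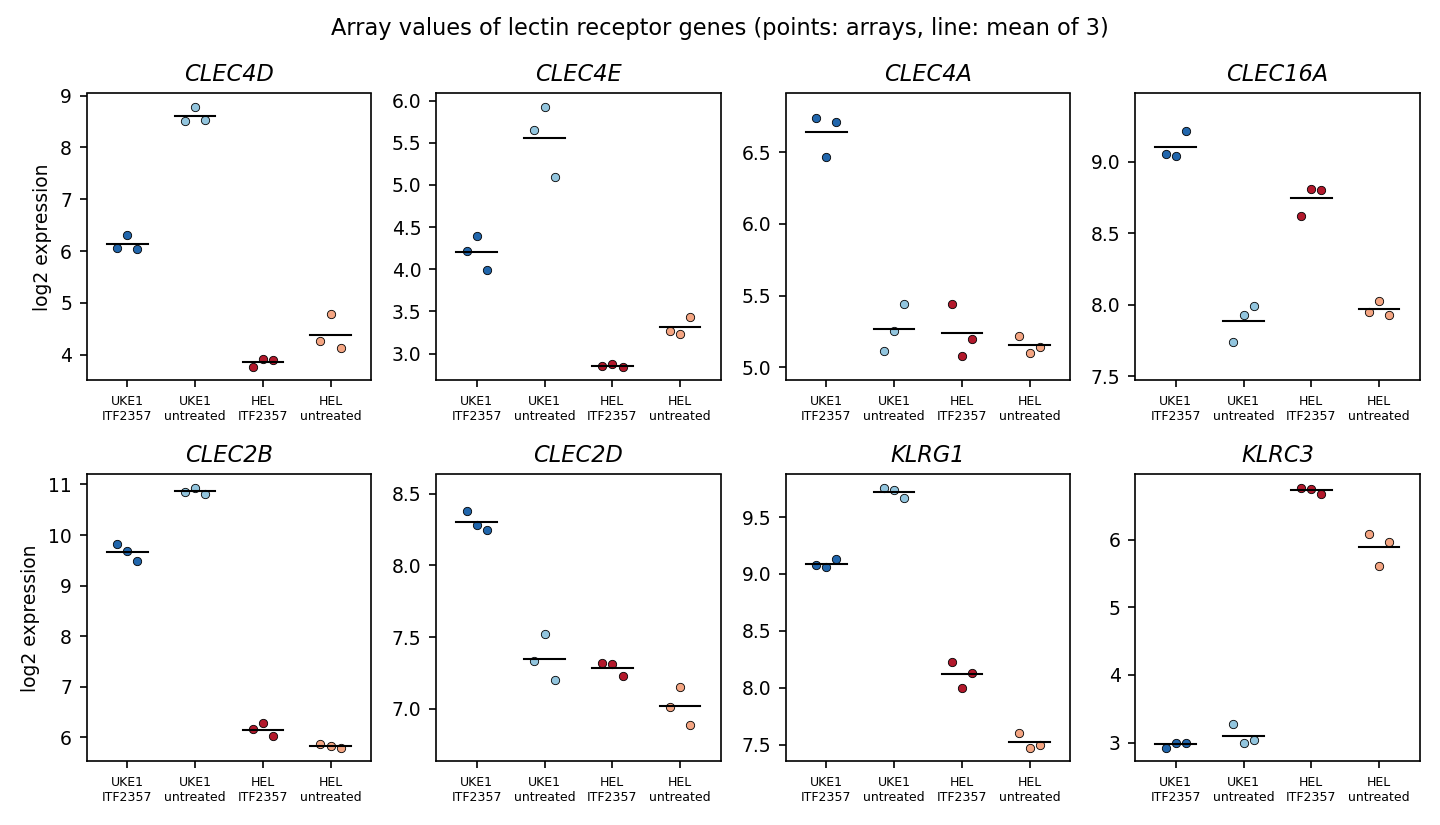
Log2 expression of CLEC4D, CLEC4E, CLEC4A, CLEC16A, CLEC2B, CLEC2D, KLRG1 and KLRC3 on each of the 12 arrays, by group, with a line at the mean of 3 arrays. CLEC4D and CLEC4E lie lower with ITF2357 in both lines, CLEC16A lies higher in both, CLEC4A lies higher in UKE1, and every KLRC3 value in HEL lies above every KLRC3 value in UKE1.

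Among the inhibitory receptors, 3 of 6 rose in UKE1 and 1 fell, against 22.0% and 22.3% of all genes. There CLEC4A, CLEC12A and CLEC12B rose and KLRG1 fell, while KLRG1 alone passed the test in HEL, where it rose. In HEL 22.6% of all genes rose. The median change of the 6 was 0.29 in UKE1 and 0.11 in HEL, against 0.01 and -0.01 over all genes. KLRC1 (NKG2A) and KLRB1 (CD161), the other two, passed in neither line. KLRC1 changed by 0.30 ± 0.12 in HEL (adjusted p = 0.0545), and passed after quantile normalization (adjusted p = 0.0464) and median centring (adjusted p = 0.0383).

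CLEC4A, an inhibitory receptor of myeloid cells known as DCIR, had the steepest rise of any member in UKE1. It had 6.74, 6.47 and 6.71 in UKE1 with ITF2357, against 5.11, 5.25 and 5.44 untreated. HEL had 5.44, 5.08 and 5.20 with ITF2357, against 5.22, 5.10 and 5.14 untreated. Treated UKE1 lay above all other arrays, and the remaining 3 groups overlapped. The rise in UKE1 was 2.60-fold (1.38 ± 0.11, adjusted p = 1.48e-07), against a change of 0.09 ± 0.11 in HEL (adjusted p = 0.569). The responses differed by 1.29 ± 0.15 (adjusted p = 3.94e-05). The lines differed by 0.11 ± 0.11 untreated (adjusted p = 0.361) and by 1.40 ± 0.11 with the drug (adjusted p = 3.49e-08).

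CLEC12A, an inhibitory receptor for uric acid crystals and a surface marker of myeloid leukaemia cells, also rose in UKE1. It had 6.44, 6.09 and 6.32 in UKE1 with ITF2357, against 5.67, 5.67 and 5.38 untreated. HEL had 3.49, 3.61 and 3.70 with ITF2357, against 3.58, 3.36 and 3.49 untreated. Only the UKE1 groups were apart. CLEC12A rose 1.64-fold in UKE1 (0.71 ± 0.10, adjusted p = 6.27e-05), and its response differed from that of HEL by 0.59 ± 0.15 (adjusted p = 0.0105).

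CLEC12A-AS1, the noncoding RNA named as antisense to CLEC12A, followed it. UKE1 had 7.39, 7.27 and 7.41 with ITF2357, against 6.70, 6.89 and 6.57 untreated. HEL had 5.99, 6.01 and 5.95 with ITF2357, against 5.99, 6.02 and 6.15 untreated. Treated UKE1 lay above untreated UKE1, and the HEL groups overlapped. The rise in UKE1 was 0.63 ± 0.08 (adjusted p = 1.61e-05), and the difference between responses 0.70 ± 0.11 (adjusted p = 0.000527). This array labels sense targets, and the strand of each probe was not checked here.

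CLEC12B, a related inhibitory receptor and a near neighbour of CLEC12A, rose in UKE1 as well. Its UKE1 values were 5.84, 5.48 and 5.58 with ITF2357, against 5.34, 5.36 and 5.20 untreated. HEL values were 2.87, 2.81 and 2.93 with ITF2357, against 3.09, 2.74 and 2.89 untreated. The UKE1 groups were apart and the HEL groups overlapped. CLEC12B rose by 0.33 ± 0.10 in UKE1 (adjusted p = 0.0146), a call lost without UKE1 ITF2357 replicate 1 (adjusted p = 0.0797) or UKE1 untreated replicate 3 (adjusted p = 0.0596). The test of the difference between lines was not passed (0.37 ± 0.14, adjusted p = 0.0777), but was without HEL untreated replicate 2 (adjusted p = 0.0362) or UKE1 ITF2357 replicate 2 (adjusted p = 0.0445).

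KLRG1, an inhibitory receptor for cadherins on killer and memory T cells, changed in opposite directions in the lines. It had 9.08, 9.06 and 9.13 in UKE1 with ITF2357, against 9.76, 9.74 and 9.67 untreated. HEL had 8.23, 8.0 and 8.13 with ITF2357, against 7.60, 7.47 and 7.50 untreated. No groups overlapped, and all UKE1 arrays were above all HEL arrays. The change was -0.64 ± 0.07 in UKE1 (1.55-fold lower, adjusted p = 3.27e-06) and 0.60 ± 0.07 in HEL (1.51-fold higher, adjusted p = 6.31e-06). The difference of -1.23 ± 0.10 had an adjusted p of 1.35e-06. UKE1 stood 1.96-fold above HEL with ITF2357 and 4.61-fold above it untreated.

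The 3 measured members of the CLEC2 kind encode lectin-like ligands that killer receptors recognise. All 3 rose in HEL, where 22.6% of all genes did, though the CLEC2D call there depended on single arrays, as given below. In UKE1 CLEC2D rose, and CLEC2A and CLEC2B fell, against 22.0% and 22.3% of all genes. Their median change was -0.66 in UKE1 and 0.32 in HEL, against 0.01 and -0.01 over all genes.

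CLEC2B (AICL), the ligand of KLRF1, had 9.83, 9.69 and 9.49 in UKE1 with ITF2357, against 10.85, 10.94 and 10.81 untreated. HEL had 6.16, 6.28 and 6.02 with ITF2357, against 5.87, 5.84 and 5.79 untreated. The treated arrays were below the untreated ones in UKE1 and above them in HEL, without overlap. CLEC2B fell 2.30-fold in UKE1 (-1.20 ± 0.09, adjusted p = 9.78e-08) and rose 1.25-fold in HEL (0.32 ± 0.09, adjusted p = 0.00845). The responses differed by -1.52 ± 0.12 (adjusted p = 2.02e-06). UKE1 was 3.51 ± 0.09 above HEL with ITF2357 and 5.03 ± 0.09 above it untreated.

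CLEC2A (KACL), the ligand of the killer receptor NKp65, had 9.50, 9.49 and 9.48 in UKE1 with ITF2357, against 10.11, 10.17 and 10.17 untreated. HEL had 4.46, 4.32 and 4.41 with ITF2357, against 3.94, 4.31 and 3.53 untreated. The UKE1 groups were well apart, and in HEL the highest untreated array lay just below the lowest treated one. The change was -0.66 ± 0.14 in UKE1 (adjusted p = 0.00111) and 0.47 ± 0.14 in HEL (adjusted p = 0.0123). The difference between the responses was -1.13 ± 0.19 (adjusted p = 0.000807). Untreated UKE1 was 6.23 ± 0.14 above untreated HEL, whose values lay low and were not shown to be above background.

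CLEC2D (LLT1), the ligand of KLRB1, had 8.38, 8.28 and 8.25 in UKE1 with ITF2357, against 7.33, 7.52 and 7.20 untreated. HEL had 7.32, 7.31 and 7.23 with ITF2357, against 7.01, 7.15 and 6.89 untreated. Treated arrays lay above untreated arrays in both lines. CLEC2D rose 1.93-fold in UKE1 (0.95 ± 0.09, adjusted p = 7.39e-07) and 1.21-fold in HEL (0.27 ± 0.09, adjusted p = 0.0216). The HEL call was lost without any 1 of HEL ITF2357 replicates 1 and 2 and HEL untreated replicates 1 and 3 (adjusted p between 0.051 and 0.0976). The rise was greater in UKE1 by 0.68 ± 0.12 (adjusted p = 0.0012).

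The NKG2 genes stood the other way round from the myeloid members, with higher values in HEL. KLRC2 (NKG2C) and KLRC3 (NKG2E) encode chains that join KLRD1 (CD94) to bind the class I molecule HLA-E, and KLRC4-KLRK1 is a readthrough transcript into the gene of NKG2D. All 3 rose in HEL and passed the test in UKE1 in neither direction, though KLRC2 fell in UKE1 when UKE1 untreated replicate 3 was left out (-0.39, adjusted p = 0.00859). KLRC1, KLRC2 and KLRC3 are near-identical copies, so how far the array separates them is uncertain.

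KLRC3 had 2.92, 3.00 and 3.00 in UKE1 with ITF2357, against 3.27, 3.00 and 3.04 untreated. HEL had 6.77, 6.75 and 6.67 with ITF2357, against 6.09, 5.61 and 5.97 untreated. The treated UKE1 arrays lay just below the untreated ones, by less than rounding shows at 3.00, and the HEL groups were apart. The change was -0.13 ± 0.11 in UKE1 (adjusted p = 0.369) and 0.84 ± 0.11 in HEL (1.79-fold, adjusted p = 1.68e-05), and the responses differed by -0.97 ± 0.15 (adjusted p = 0.000393). Untreated UKE1 differed by -2.78 ± 0.11 from untreated HEL.

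KLRC2 had 2.47, 2.75 and 2.49 in UKE1 with ITF2357, against 3.03, 2.90 and 2.45 untreated. HEL had 5.33, 5.19 and 5.15 with ITF2357, against 4.54, 4.80 and 4.76 untreated. Overlap was present in UKE1 and not in HEL. KLRC2 rose by 0.53 ± 0.13 in HEL (adjusted p = 0.00481), and the responses differed by -0.75 ± 0.19 (adjusted p = 0.0101).

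KLRC4-KLRK1 had 3.94, 3.51 and 3.26 in UKE1 with ITF2357, against 4.49, 3.55 and 3.56 untreated. HEL had 6.24, 6.65 and 6.04 with ITF2357, against 4.86, 5.52 and 4.99 untreated. Again the groups overlapped in UKE1 alone. The rise of 1.19 ± 0.26 in HEL (2.28-fold, adjusted p = 0.0016) was the greatest of any member in that line, with the widest standard error too. The responses differed by -1.49 ± 0.36 (adjusted p = 0.00873).

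KLRF1 (NKp80), an activating receptor, was in contrast higher in UKE1. It had 6.97, 7.02 and 7.03 in UKE1 with ITF2357, against 6.51, 6.78 and 6.55 untreated. HEL had 3.31, 3.30 and 3.21 with ITF2357, against 3.36, 3.27 and 3.28 untreated. The UKE1 groups did not overlap and the HEL groups did. KLRF1 rose by 0.39 ± 0.07 in UKE1 (adjusted p = 0.000446) and its response differed from that of HEL by 0.42 ± 0.10 (adjusted p = 0.00863). KLRD1, the shared partner chain, passed the test in neither line, with changes of 0.06 ± 0.09 in UKE1 and -0.10 ± 0.09 in HEL.

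Natural killer cell markers moved in both directions. Over all genes 22.0% rose and 22.3% fell in UKE1, and 22.6% rose and 19.9% fell in HEL. Of 12 measured natural killer cell markers, 2 rose and 2 fell in UKE1, and 2 rose and 3 fell in HEL. The list mean was 6.17 to 6.22 in treated and 6.17 to 6.21 in untreated UKE1, and 6.06 to 6.25 in treated and 6.15 to 6.25 in untreated HEL. In the untreated lines 4 were higher and 7 lower in UKE1, against 33.3% and 34.4% of all genes. Of 7 T cell markers, which some killer receptors share, 4 fell in UKE1 and 1 in HEL, and 5 were higher and 1 lower in untreated UKE1. Their list means were 7.31 to 7.35 in treated and 7.54 to 7.60 in untreated UKE1, and 5.09 to 5.26 in treated and 5.23 to 5.33 in untreated HEL. The part of these markers was not tested.

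Of 5 sugar-binding endocytic receptors, CLEC4G rose in UKE1 and CLEC4M fell in HEL, and CLEC4F, CLEC10A and CLEC17A passed in neither line. CLEC4M (L-SIGN), a mannose-binding receptor of liver and lymph node endothelium, had 4.57, 4.59 and 4.80 in UKE1 with ITF2357, against 4.43, 4.70 and 4.80 untreated. HEL had 5.96, 5.62 and 5.99 with ITF2357, against 6.19, 6.23 and 6.07 untreated. The UKE1 groups overlapped, the HEL groups did not, and every UKE1 array lay below every HEL array. CLEC4M fell by 0.31 ± 0.11 in HEL (adjusted p = 0.0405). That call was lost after quantile normalization (adjusted p = 0.0609). It was also lost without HEL ITF2357 replicate 2 or HEL untreated replicate 1 or 2 (adjusted p between 0.0926 and 0.195). A probe set shared by CD209 and CLEC4M did not pass in HEL (-0.16, adjusted p = 0.247). CLEC4G (LSECtin), also of liver endothelium, rose by 0.21 ± 0.08 in UKE1 (adjusted p = 0.0451). That call was lost without any 1 of the 6 UKE1 arrays (adjusted p between 0.0685 and 0.133), without HEL ITF2357 replicate 1, with an intensity trend and under either rescaling. The CLEC4G responses differed by 0.39 ± 0.11 (adjusted p = 0.0213), and by 0.32 and 0.36 without HEL ITF2357 replicate 3 and UKE1 untreated replicate 2, each just short of the threshold.

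CLEC11A, a secreted growth factor for blood progenitors and bone, fell in UKE1. It had 7.77, 7.48 and 7.51 in UKE1 with ITF2357, against 8.27, 8.09 and 8.12 untreated. HEL had 9.13, 9.12 and 9.26 with ITF2357, against 8.99, 9.16 and 9.21 untreated. UKE1 groups were apart, HEL groups overlapped, and all UKE1 arrays were below all HEL arrays. CLEC11A fell 1.49-fold in UKE1 (-0.57 ± 0.09, adjusted p = 0.000111), and the responses differed by -0.62 ± 0.13 (adjusted p = 0.0028). Of the other secreted members CLEC3A, a cartilage protein, fell by 0.34 ± 0.09 in HEL (adjusted p = 0.00643). Its responses differed by 0.43 ± 0.13 (adjusted p = 0.0253), a call lost without any 1 of 5 arrays, HEL ITF2357 replicate 3, HEL untreated replicates 2 and 3, UKE1 ITF2357 replicate 3 and UKE1 untreated replicate 1 (adjusted p between 0.0526 and 0.063). CLEC3B (tetranectin, which binds plasminogen) and CLEC19A passed in neither line.

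CLEC16A, whose product works in the clearance of mitochondria and lysosomal traffic and which lies apart from the complex, on chromosome 16, rose in both lines. UKE1 had 9.05, 9.04 and 9.21 with ITF2357, against 7.74, 7.93 and 7.99 untreated. HEL had 8.62, 8.81 and 8.80 with ITF2357, against 7.95, 8.03 and 7.93 untreated. Every treated array lay above every untreated array of either line. The rise was 2.31-fold in UKE1 (1.21 ± 0.08, adjusted p = 4.55e-08) and 1.71-fold in HEL (0.77 ± 0.08, adjusted p = 3.01e-06), greater in UKE1 by 0.43 ± 0.12 (adjusted p = 0.0144). The untreated lines differed by -0.08 ± 0.08 (adjusted p = 0.4).

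CLEC1A, a receptor of endothelium and dendritic cells, had 8.67, 8.81 and 8.83 in UKE1 with ITF2357, against 9.42, 9.37 and 9.43 untreated. HEL had 3.62, 3.63 and 3.54 with ITF2357, against 3.64, 3.61 and 3.62 untreated. The UKE1 groups were apart and the HEL groups overlapped. CLEC1A fell 1.55-fold in UKE1 (-0.63 ± 0.06, adjusted p = 9.83e-07), and the responses differed by -0.61 ± 0.08 (adjusted p = 0.000168). Untreated UKE1 was 5.78 ± 0.06 above untreated HEL. KLRG2 rose by 0.35 ± 0.07 in UKE1 (adjusted p = 0.00059), with a difference between responses of 0.37 ± 0.09 (adjusted p = 0.0109). The endothelial receptor CLEC14A, CLEC20A, and the pseudogenes CLEC4GP1 and KLRA1P passed in neither line. Over all 15 members that passed in neither, the drug change ran between -0.19 for CLEC4F and 0.24 for KLRB1 in UKE1, and between -0.26 for KLRA1P and 0.30 for KLRC1 in HEL. Leaving out 1 array let some of them pass. In HEL KLRA1P passed without HEL ITF2357 replicate 2 (adjusted p = 0.0183) or HEL untreated replicate 1 (adjusted p = 0.0408). It also passed there without UKE1 ITF2357 replicate 3 (adjusted p = 0.0447) or UKE1 untreated replicate 2 (adjusted p = 0.0469). CLEC6A passed in HEL without HEL ITF2357 replicate 1 (adjusted p = 0.0395). KLRC1 passed in HEL without HEL ITF2357 replicate 1 (adjusted p = 0.0228) or UKE1 untreated replicate 1 or 2 (adjusted p = 0.0231 and 0.0295). In UKE1 CLEC4GP1 passed without UKE1 ITF2357 replicate 3 (adjusted p = 0.027) and CLEC3B without UKE1 untreated replicate 3 (adjusted p = 0.0285).

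Without drug, 27 of 39 members differed between the lines, where 67.7% of all genes did. In UKE1 18 were higher than in HEL, where 33.3% of all genes were, and 9 were lower, where 34.4% were. At least 2 log2 units higher in UKE1 were 13 members (33.3% of them), where 2.33% of all genes were. These were CLEC9A, CLEC2A, CLEC1A, CLEC7A, CLEC2B, CLEC4D, CLEC1B, KLRF1, CLEC5A, CLEC12B, CLEC4E, KLRG1 and CLEC12A, in falling order between 7.04 and 2.09. The arrays of these 13 did not overlap between the untreated lines, which picking differences that large made all but certain. The 9 lower in UKE1 ran between -2.78 for KLRC3 and -0.28 for CLEC3A, the last lost without HEL untreated replicate 3 (adjusted p = 0.0538) or UKE1 untreated replicate 1 (adjusted p = 0.0573).

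With ITF2357 in both lines, 32 members differed, where 68.0% of all genes did. Of these, 24 were higher in UKE1 (34.0% of all genes) and 8 lower (34.0% of all genes). The call of CLEC10A held in 13 of the 20 alternatives that kept it in the test. Those of CLEC4F, CLEC14A and KLRA1P held in 17 of 20 each. At least 2 log2 units higher were 11 members (28.2% of them), against 1.90% of all genes. CLEC4E and KLRG1 were no longer among them, at 1.34 ± 0.16 and 0.97 ± 0.07. The KLRC3 difference (UKE1 minus HEL) was -3.76 ± 0.11 with ITF2357 and -2.78 ± 0.11 untreated. These comparisons share their arrays with the drug comparisons. The median difference over members was 0.35 with the drug and 0.21 without it, against 0.02 and 0.00 over all genes.

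Members higher in UKE1 lay next to each other along the natural killer gene complex. Between DPPA3 and STYK1, by the gene order of the RefSeq table, 24 members and 28 other measured genes lay on chromosome 12. Over all genes 33.3% were higher and 34.4% lower in untreated UKE1, and 2.33% were higher by at least 2 log2 units. Of the 24 members, 15 were higher and 4 lower in untreated UKE1, 12 of them higher by at least 2 log2 units. Of the other 28 genes, 9 were higher and 11 lower, and 1, CLECL1, was higher by that much (3.34). These 28 are not free of lectin genes, since the symbol rule misses CD69, OLR1 and, by its name, CLECL1. All members from KLRF1 through CLEC2B, CLEC2A, CLEC12A-AS1, CLEC12A, CLEC1B, CLEC12B, CLEC9A and CLEC1A to CLEC7A were higher in UKE1, and all but CLEC12A-AS1, at 0.67, by at least 2 log2 units.

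The genes just before KLRF1 (CLEC2D, CLECL1 and CD69) were also higher in untreated UKE1, by 0.33, 3.34 and 1.68. Beyond CLEC7A the differences were small and then turned. OLR1, a lectin-like receptor for oxidised lipoprotein, averaged 3.76 in untreated UKE1 and 3.48 in untreated HEL (adjusted p = 0.0195). TMEM52B, the next measured gene, was also higher in untreated UKE1 (0.37, adjusted p = 0.00223). GABARAPL1, an autophagy gene, averaged 5.82 in untreated UKE1 and 6.97 in untreated HEL. The next members, KLRC4-KLRK1, KLRC3, KLRC2 and KLRC1, were all lower in UKE1. KLRD1, between GABARAPL1 and KLRC4-KLRK1, averaged 2.91 in untreated UKE1 and 3.04 in untreated HEL and was not called.

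**Figure D3:**
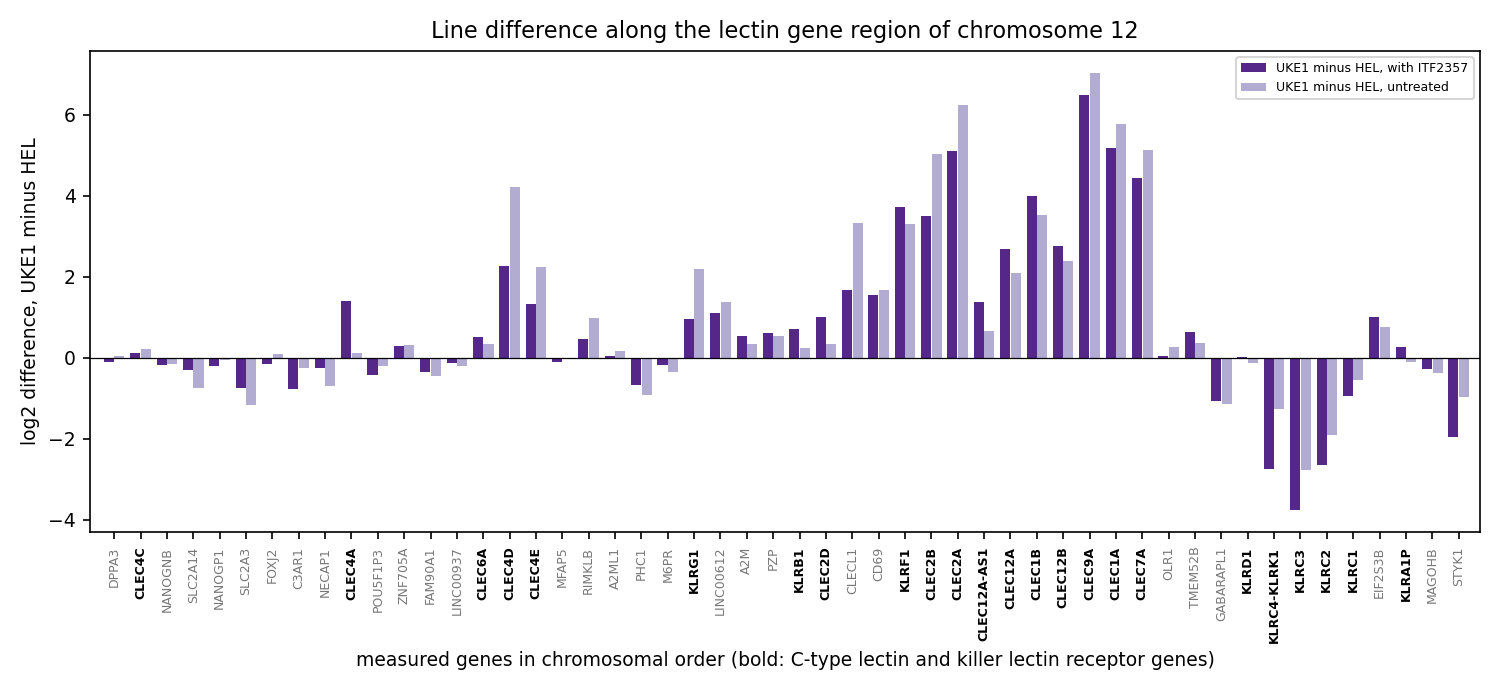
Bars give the log2 difference UKE1 minus HEL with ITF2357 (dark) and untreated (light) for 24 members (bold names) and 28 other measured genes in their order along the natural killer gene complex. The run between KLRF1 and CLEC7A lies above 0 and the KLRC genes below it.

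For the drug response, rising and falling members lay among each other. Within the complex 6 of 24 members rose and 8 fell in UKE1, and 7 rose and 3 fell in HEL. Of the 28 other genes 8 rose and 6 fell in UKE1, and 9 rose and 4 fell in HEL. Among them CLECL1 fell in UKE1 (-1.40, adjusted p = 1.47e-08) and rose in HEL (0.26, adjusted p = 0.0199). Over all genes 22.0% rose and 22.3% fell in UKE1, and 22.6% rose and 19.9% fell in HEL. In the run between KLRF1 and CLEC7A, CLEC2B, CLEC2A, CLEC9A, CLEC1A and CLEC7A fell in UKE1, and KLRF1, CLEC12A-AS1, CLEC12A and CLEC12B, lying among them, rose. CD69, an early activation lectin beside KLRF1, had 12.39, 12.34 and 12.37 in UKE1 with ITF2357, against 11.61, 11.71 and 11.62 untreated. HEL had 10.85, 10.89 and 10.76 with ITF2357, against 10.03, 9.95 and 9.91 untreated. CD69 rose by 0.72 in UKE1 and by 0.87 ± 0.06 in HEL (adjusted p = 7.41e-08), with no overlap in either line. STYK1, at the far end of the KLRC genes, averaged 4.63 in treated and 4.35 in untreated UKE1, and 6.59 in treated and 5.32 in untreated HEL.

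Adaptors and kinases that carry the signals of these receptors changed in both directions. Of 22 measured of 24 listed, 5 rose and 12 fell in UKE1, against 22.0% and 22.3% of all genes, with a median change of -0.30. In HEL 6 rose and 6 fell, against 22.6% and 19.9% of all genes, with a median change of -0.07. SYK, the kinase shared by the activating receptors, had 10.04, 10.06 and 10.07 in UKE1 with ITF2357, against 10.49, 10.49 and 10.42 untreated. HEL had 9.22, 9.24 and 9.26 with ITF2357, against 9.29, 9.30 and 9.32 untreated. Treated arrays were below untreated arrays in both lines, and the change passed the test in UKE1 (-0.41 ± 0.05, adjusted p = 1.85e-05) but not in HEL (-0.07 ± 0.05, adjusted p = 0.332). The responses differed by -0.34 ± 0.07 (adjusted p = 0.00456).

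NFKB1, a transcription factor subunit downstream of these receptors, fell in both lines. It had 8.48, 8.53 and 8.48 in UKE1 with ITF2357, against 9.53, 9.53 and 9.50 untreated. HEL had 8.47, 8.60 and 8.54 with ITF2357, against 9.41, 9.44 and 9.42 untreated. Neither pair overlapped. The fall was -1.02 ± 0.06 in UKE1 (adjusted p = 6.98e-09) and -0.89 ± 0.06 in HEL (adjusted p = 2.93e-08), and the difference of -0.14 ± 0.08 did not pass (adjusted p = 0.234). INPP5D (the phosphatase SHIP1), VAV1 and LCP2, the next 3 in UKE1, fell by 0.58, 0.78 and 0.58.

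FCER1G, the Fc receptor gamma chain that CLEC4D and CLEC4E signal through, rose while those receptors fell. It had 9.56, 9.59 and 9.70 in UKE1 with ITF2357, against 9.26, 9.32 and 9.35 untreated. HEL had 10.27, 10.21 and 10.18 with ITF2357, against 9.49, 9.54 and 9.54 untreated. No overlap occurred in either line. FCER1G rose by 0.31 ± 0.06 in UKE1 (adjusted p = 0.000663) and by 0.70 ± 0.06 in HEL (adjusted p = 4.2e-07), less in UKE1 by 0.39 ± 0.08 (adjusted p = 0.00403). The kinases PRKCD and LYN rose by 1.11 ± 0.06 and 0.82 ± 0.06 in HEL.

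Of 11 measured of 16 listed ligands of killer lectin receptors, 5 rose in UKE1 (MICA, MICB, ULBP1, ULBP3, B2M), where 22.0% of all genes did. In HEL 2 rose (MICA, MICB), where 22.6% of all genes did, so that count is no more than the background. None fell in either line. MICA, a stress-induced ligand of NKG2D, had 8.37, 8.48 and 8.43 in UKE1 with ITF2357, against 7.86, 7.66 and 7.71 untreated. HEL had 8.15, 8.02 and 8.02 with ITF2357, against 7.18, 7.35 and 7.16 untreated. MICA rose by 0.68 in UKE1 and by 0.84 in HEL (adjusted p = 6.55e-07), without overlap. ULBP1, another NKG2D ligand, had 6.18, 6.52 and 6.47 in UKE1 with ITF2357, against 5.28, 5.52 and 5.58 untreated. HEL had 5.13, 4.88 and 5.03 with ITF2357, against 4.71, 5.39 and 4.87 untreated. The ULBP1 groups were apart in UKE1, where it rose by 0.93 (adjusted p = 0.000145), and overlapped in HEL, with a difference between responses of 0.91 (adjusted p = 0.00677).

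**Figure D4:**
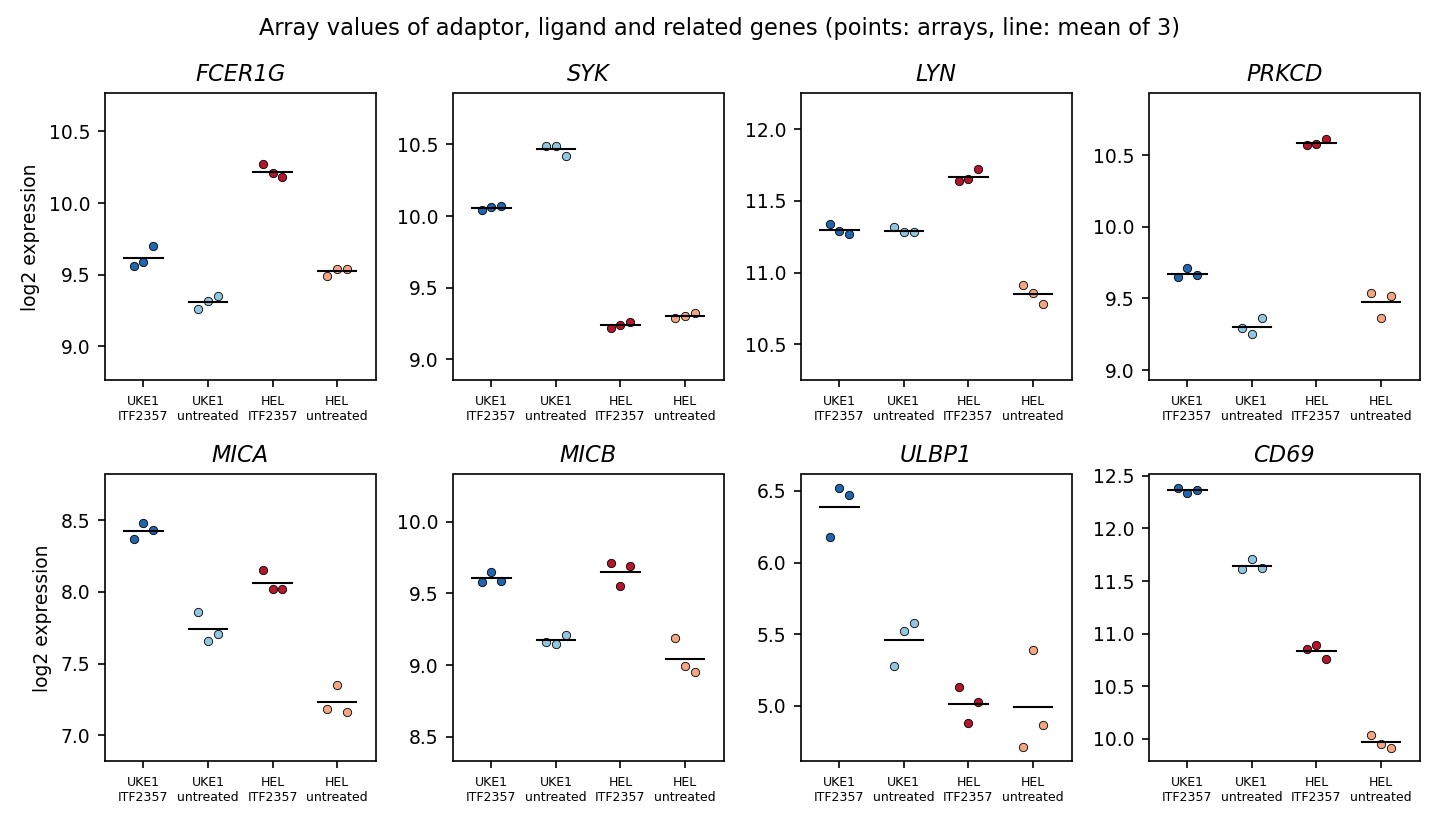
Log2 expression of FCER1G, SYK, LYN, PRKCD, MICA, MICB, ULBP1 and CD69 on each of the 12 arrays, by group, with a line at the mean of 3 arrays. MICA, MICB and CD69 lie higher with ITF2357 in both lines, ULBP1 in UKE1, and LYN in HEL.

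Genes with the same protein fold but other names gave a comparison outside these symbol families. Of 36 measured of 42 listed, 5 rose and 7 fell in UKE1, against 22.0% and 22.3% of all genes. In HEL 4 rose and 6 fell, against 22.6% and 19.9% of all genes. In UKE1 those with the smallest adjusted p included the matrix proteoglycan VCAN (-1.51), the endothelial receptor CD93 (-1.37) and the platelet selectin SELP (-0.98). In HEL they were the hyaluronan receptor LAYN (1.31), CD69, the matrix gene FREM1 (-0.73) and ATRN (0.64). In the untreated lines 16 of the 36 were higher and 6 lower in UKE1, against 33.3% and 34.4% of all genes.

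CLEC4D, the member with the greatest drug change, was set against all other genes by Pearson correlation across arrays, as a description. Over the 12 arrays, which share the difference between lines, the closest were NHSL2 (0.995), SLC44A5 (0.994), OR52N1 (0.994), IGSF10 (0.994) and EHBP1 (0.993). Over the 6 UKE1 arrays, which share the drug contrast, BPTF, PLK4, RBM26, SNORD49A and LST1 were closest, all at 0.999 or above. With 6 points in 2 sets, such values describe little beyond a common fall with the drug.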

How the data were processed

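Log2 expression was measured on 12 Affymetrix Gene 1.0 ST arrays, 3 in each of 4 groups set by the labels. The authors deposited log2 values made with Affymetrix Expression Console and RMA, per the submitters' processing notes, which give no version. No label states the log base, so log2 was read from the range of 1.26 to 14.36. RMA scales arrays to a common distribution, so a shift shared by all genes would not be seen. Of 33297 rows, those with 1 gene symbol were kept, and of several rows of a gene the one with the highest mean, leaving 18417 genes. Of 48 symbols in the RefSeq gene table (GRCh38.p14) that meet the rule, 39 had such a row. CLEC2L, CLEC4OP, CLEC18A, CLEC18B, CLEC18C, KLRC4, KLRF2, KLRK1 and KLRK1-AS1 were not analysed here as single genes.

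In limma 3.58.1 under R 4.3.3, lmFit and eBayes estimated the 4 group means together, leaving 8 residual degrees of freedom. Tests were two-sided, adjusted by Benjamini-Hochberg over 18417 genes at a threshold of 0.05. Having 3 arrays per group limits the precision. The fit was tested on simulated data. Array values are given for 22 members: those called with a log2 change of at least 0.5 with the drug or in the difference between responses, or of at least 1 between lines. The 4 genes of each partner list with the smallest adjusted p in a drug contrast, and genes of the complex, were open to naming. SYK, named for its role, fell outside that rule and was chosen after its values were seen. The members and lists were chosen with earlier results of these data known. No label pairs the samples by replicate number, and within each line deviations of same-numbered arrays correlated between -0.09 and 0.06. A weak shared effect might not show there, and arrays of different lines were not compared in this way. No label gives a scan or culture batch. Alternatives were median centring, quantile normalization, an intensity trend, only the groups of a contrast, a replicate block, robust eBayes, the row with the lowest mean per gene, rows with several symbols kept, only genes above the median level, and leaving out each of the 12 arrays.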

Additional observations from a re-analysis of the deposited data

Results flagged for a closer look

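The responses of the lines to ITF2357 differed for 22 members by limma's test of the difference (UKE1 response minus HEL response, log2). The difference was lower in UKE1 for CLEC4D (-1.96), CLEC2B (-1.52), KLRC4-KLRK1 (-1.49), KLRG1 (-1.23), CLEC2A (-1.13), KLRC3 (-0.97), CLEC4E (-0.91), KLRC2 (-0.75), CLEC7A (-0.69), CLEC11A (-0.62), CLEC1A (-0.61) and CLEC9A (-0.54). It was higher in UKE1 for CLEC4A (1.29), CLEC12A-AS1 (0.70), CLEC2D (0.68), CLEC12A (0.59), CLEC1B (0.47), CLEC16A (0.43), CLEC3A (0.43), KLRF1 (0.42), CLEC4G (0.39) and KLRG2 (0.37). Adjusted p-values lay between 1.35e-06 for KLRG1 and 0.0253 for CLEC3A. Groups of 3 arrays were too small to test single arrays as outliers.

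Probe sets that the annotation assigns to several symbols stayed out of the tests above, and 6 of them hold a symbol of the rule. The one shared by KLRC4-KLRK1 and KLRK1, the gene of NKG2D, averaged 6.94 in treated and 5.51 in untreated HEL, a difference of 1.43 (adjusted p = 1.15e-06). The one shared by KLRC4-KLRK1 and KLRC4 averaged 6.67 in treated and 5.58 in untreated HEL, a difference of 1.10 (adjusted p = 3.16e-06). In UKE1 their differences were 0.15 (adjusted p = 0.416) and 0.12 (adjusted p = 0.451). The one shared by CD209 and CLEC4M passed the drug test in neither line (-0.16 in HEL, adjusted p = 0.247, and -0.04 in UKE1, adjusted p = 0.814). Its difference between the untreated lines (UKE1 minus HEL) was -0.59, against -1.52 for the CLEC4M row tested above. Those shared by CLEC18A, CLEC18B and CLEC18C passed the drug test in neither line. These adjusted p-values come from limma.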

How the results depend on the processing

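Across 21 alternatives, 3851 of 3935 comparisons of single members kept their side of the threshold, 54 lost the call and 30 gained one. None that was called in the main fit or in the alternative reversed its direction. Changes called in neither fit could switch sign and still count among the 3851. CLEC11A in HEL, for example, ran between -0.01 and 0.1. Keeping only genes above the median level left 7 members among 9208 genes. Of these members, 5 were called in UKE1, 5 in HEL and 6 for the difference between responses. Between the untreated lines 5 were called, and between the treated lines 6. Over the 9208 genes, 6398 were called in UKE1, 6377 in HEL and 3716 for the difference. Between the untreated lines 7381 were called and between the treated 7295, fewer than in the main fit since fewer genes were tested. Leaving out 1 array at a time gave 16 to 18 called members in UKE1, 11 to 15 in HEL, 20 to 23 for the difference, 25 to 28 untreated and 29 to 32 treated. Over all genes these ranges were 7386 to 8236, 7197 to 7793, 3726 to 4245, 11812 to 12535 and 11761 to 12622. With the replicate number as a block, 17 members were called in UKE1, 14 in HEL, 23 for the difference, 27 untreated and 32 treated. No label states a pairing by these numbers, so this block was not used elsewhere. The table gives neither signal over background nor depth, so small changes at low values are bounded only by the spread between arrays.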
